A study of Mus musculus with 6 samples.

Results

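The MYC, MAX and MXD network is a family of basic helix-loop-helix leucine zipper proteins that pair with one another and bind DNA, and its transcripts were measured here in mouse bone marrow (BM) cells cultured with or without the compound NUP-17d. The 10 members were chosen by gene symbol: Myc, Max, Mxd1, Mxd3, Mxd4, Mxi1, Mnt, Mga, Mlx and Mlxip. All 10 were among the 17060 genes listed in at least 1 of the 6 libraries, and all 10 passed the filter on low counts that left 12306 genes for testing. Lineage-negative BM cells from wild-type mice were grown in the EPO induction system, which drives them along the red cell lineage, and received either NUP-17d, a small-molecule inhibitor of pleckstrin-2 (Plek2), or DMSO, its solvent, for 48 hours. There were 3 libraries in each group, written below as DMSO 1 to 3 and NUP-17d 1 to 3. Every culture came from wild-type cells in the same EPO medium, the labels name no mutant allele in either group, and they give neither the age of the mice nor whether replicates came from separate animals, so that p-values measure the spread between these libraries, which may be technical.

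MYC activates transcription only as a heterodimer with MAX, and it favours genes for growth, ribosome production and metabolism. The MXD proteins (MXD1, MXI1, MXD3 and MXD4), MNT and MGA compete for the same MAX protein and repress through corepressor complexes, and a parallel branch is formed by MLX with MLXIP, which responds to glucose metabolites. In the red cell lineage MYC is known to decline as erythroblasts mature, and MXD1 and MXI1 are known as genes of differentiating cells.

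MYC-MAX and MXD-MAX dimers recognise the E-box, written CACGTG, which reads the same on both strands. The RefSeq promoter sequences on build GRCm38.p6 (250 bases before to 50 bases after the start site) covered 9 of the 10 members with 11 promoters, and Myc had no entry. The E-box occurred once in the promoters of 4 members, and these 30-base windows are shown because the same genes encode the proteins that bind the motif. Each is written 5′ to 3′ on the strand of the gene with the E-box in capitals.
Max, chr12:76962234-76962263, minus strand: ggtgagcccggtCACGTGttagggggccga
Mlx, chr11:101087238-101087267, plus strand: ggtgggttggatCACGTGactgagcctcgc
Mnt, chr11:74830789-74830818, plus strand: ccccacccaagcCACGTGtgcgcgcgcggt
Mxd4, chr5:34187912-34187941, minus strand: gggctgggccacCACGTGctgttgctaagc
Counted from the start site, the motif began at base -3 in Max, -40 in Mlx, -123 in Mnt and -219 in Mxd4. None of the promoter windows of Mga, Mlxip, Mxd1, Mxd3 or Mxi1, the last with 3 promoters, held these letters. The motif was present in 4 of 11 member promoters (36.4%), in 1518 of 17014 promoters of genes listed in the libraries (8.92%) and in 2349 of all 32851 promoters (7.15%). These shares describe the sequence and carry no information on binding in these cells.

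Library totals were close, from 20278433 to 20419018 expected counts in DMSO and from 20076409 to 20170197 with NUP-17d, but the mix of transcripts differed. Hemoglobin genes took 19.1% ± 1.04 (SD, n = 3) of the counts in DMSO and 12.2% ± 0.723 (SD, n = 3) with NUP-17d. Levels are therefore given as CPM, a count relative to library size, after TMM scaling (trimmed mean of M-values), which centres the comparison on the bulk of genes. The median log2 fold change of all tested genes was 0.01 with TMM and 0.28 when libraries were scaled by their totals alone. The 12 erythroblast markers, all detected, were lower with NUP-17d in 12 of 12 cases, and their summed level was 218300 to 252200 CPM in DMSO and 120600 to 135000 CPM with NUP-17d. In a mixed culture, fewer cells of a type and less RNA per cell cannot be told apart. The neutrophil and monocyte markers summed to 4148 to 4293 CPM in DMSO and 4248 to 4471 CPM with NUP-17d, with 1 of 10 higher and 0 lower, and Ly6g was the lowest of them. The macrophage markers (2 higher and 2 lower of 6) summed to 343.6 to 380.4 and 379.1 to 432.6 CPM, and the megakaryocyte markers (4 higher of 6) to 428.5 to 470.6 and 491.9 to 512.6 CPM. The mast cell and basophil markers (1 higher and 3 lower of 6) summed to 233.8 to 251.3 and 207.2 to 214.1 CPM, and the stem and progenitor markers (2 higher of 6 tested) to 304.2 to 309.3 and 314.9 to 330.9 CPM. Lymphoid markers had the lowest sum at 22.03 to 24.86 and 19.67 to 20.02 CPM, with 2 of 6 lower, and no marker of these lists had a mean of 0 in either group. Over all tested genes, 16.4% were called higher and 18.9% lower with TMM, and 68.7% higher and 5.36% lower under library totals. Under library totals, 10 of the 12 erythroblast markers were lower and 0 higher. The counts higher and lower on that scale were 9 and 0 for neutrophils and monocytes, 4 and 0 for macrophages and 6 and 0 for megakaryocytes. They were 2 and 0 for mast cells and basophils, 6 and 0 for stem and progenitor cells and 0 and 1 for lymphoid cells. Plek2, the target of the compound, had a log2 fold change of -0.40 with TMM (edgeR adjusted p = 1.78e-07). The size of this value depends on the scaling, as the medians above show. The study reports high Plek2 levels above all late in this culture. The part of the lower erythroblast markers in the Plek2 value was not tested.

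The network did not move in 1 direction. By edgeR's quasi-likelihood test, with p-values adjusted across the 12306 genes (Benjamini-Hochberg), 3 members were higher with NUP-17d (Mxd4, Mnt and Mlxip), 3 were lower (Mxd1, Mxi1 and, with TMM scaling but not with library totals, Max) and 4 did not pass an adjusted p of 0.05 (Myc, Mxd3, Mga and Mlx). Among all tested genes 16.4% were called higher and 18.9% lower. The CPM ranges of the groups did not overlap for 6 of 10 members, against 46.0% of all tested genes. The median log2 fold change of the 10 members was -0.03, beside 0.01 over all tested genes. With library totals alone, 68.7% of tested genes were called higher and 5.36% lower, and 7 members were then called higher and 2 lower, with Max, Mxd3, Mga and Mlx changing sign.

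**Figure D1:**
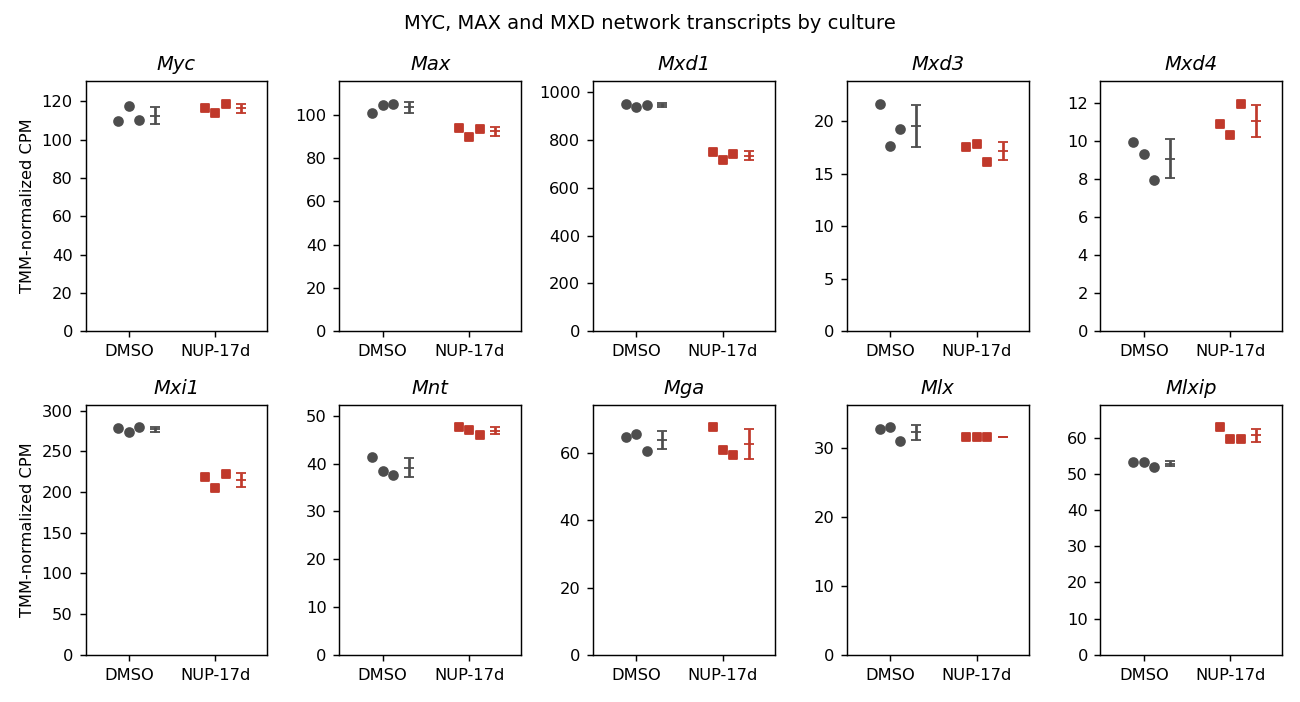
TMM-normalized CPM (vertical axes, each from 0) of the 10 network genes in the 3 DMSO (grey circles) and 3 NUP-17d libraries (red squares), where each point is 1 library and the bars show the mean ± SD. Mxd1, Mxi1 and Max sit lower in every NUP-17d library than in any DMSO library, Mnt, Mlxip and Mxd4 sit higher (of these 6, Max changes sign under library totals), and the points of Myc, Mxd3, Mga and Mlx overlap between the groups.

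Myc encodes the activating member of the network. The gene lies at chr15:61985341-61990361 on the plus strand of GRCm38.p6. Its level was 109.5, 117.8 and 110.3 CPM in DMSO 1 to 3 and 116.5, 114.1 and 118.7 CPM in NUP-17d 1 to 3. The groups overlapped, because DMSO 2 was above NUP-17d 1 and 2. The mean was 112.5 ± 4.57 CPM in DMSO and 116.4 ± 2.33 CPM with NUP-17d (SD, n = 3), a log2 fold change of 0.05 with SE 0.04 (edgeR adjusted p = 0.344). The 95% interval ran from -0.03 to 0.13. Under library totals Myc reached 0.32 (edgeR adjusted p = 7.72e-07), which was 0.03 above the median of all genes on that scale, the same distance as with TMM. The scale therefore decided the call for Myc, while its place among the genes did not move.

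The 5 genes with the profile most like that of Myc over the 6 libraries were Bcap31, Sash3, Ankrd10, Rgs18 and Clpb, at Euclidean distances of 0.0432 to 0.0480 on centred log2 CPM. This closeness was common, since 2420 of 9763 candidate genes lay within 0.2 of Myc. Mycn, the MYC paralog best known from progenitor and neural cells, was at 12.76, 13.44 and 12.73 CPM in DMSO and at 17.35, 18.69 and 17.13 CPM with NUP-17d. Every NUP-17d library exceeded every DMSO library for Mycn, and its log2 fold change was 0.45 with SE 0.07 (edgeR adjusted p = 1.06e-05). Mycl, the third MYC gene, was at 3.87 ± 0.733 and 4.11 ± 0.249 CPM (SD, n = 3; edgeR adjusted p = 0.706), and Mlxipl, which encodes a further partner of MLX, had too few counts to be tested. Of these other family genes, 1 of 2 tested was higher with TMM and 2 under library totals, and 0 were lower. The shares over all tested genes were 16.4% higher and 18.9% lower with TMM, and 68.7% and 5.36% under library totals.

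Max encodes the shared partner with which MYC, the MXD proteins, MNT and MGA pair, although some of the repressors can also pair with MLX. It lies on chromosome 12, from base 76937269 to base 76962323, on the minus strand. Its level was 100.6, 104.5 and 105.0 CPM in DMSO and 93.64, 89.86 and 93.46 CPM with NUP-17d. All 3 treated libraries were below all 3 controls. The mean went from 103.4 ± 2.39 to 92.3 ± 2.14 CPM (SD, n = 3), which is 0.893 of the DMSO level (log2 fold change -0.16, SE 0.04, edgeR adjusted p = 0.00121), but under library totals Max was higher with NUP-17d, by 0.10 on the log2 scale (edgeR adjusted p = 0.0354). Max lay 0.18 below the median of all genes under both scalings.

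Mxd1 and Mxi1 encode MAX-binding repressors that recruit the SIN3 corepressor, and they were the members that fell most. Mxd1, on the minus strand of chromosome 6 between bases 86647044 and 86669234, was at 952.1, 937.8 and 948.0 CPM in DMSO and at 749.8, 716.0 and 739.8 CPM with NUP-17d. The highest treated library was well below the lowest control. The mean of 946.0 ± 7.38 CPM fell to 735.2 ± 17.3 CPM (SD, n = 3), or 0.777 of the DMSO level (log2 fold change -0.36, SE 0.03, 95% interval -0.43 to -0.29, edgeR adjusted p = 2.15e-09). In absolute size this change exceeded that of 85.3% of tested genes. Mxd1 also fell under library totals, by 0.10 on the log2 scale (edgeR adjusted p = 0.00631), and it passed the test in 13 of 13 alternatives.

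Mxi1, at bases 53310128 to 53373293 of chromosome 19 on the plus strand, was at 278.5, 273.7 and 279.2 CPM in DMSO and at 218.1, 205.3 and 221.7 CPM with NUP-17d. The groups did not overlap. The mean was 277.1 ± 3.01 CPM in DMSO and 215.0 ± 8.64 CPM with NUP-17d (SD, n = 3), or 0.776 of the DMSO level (log2 fold change -0.37, SE 0.04, edgeR adjusted p = 4.85e-09). Like Mxd1, it passed the test as lower in 13 of 13 alternatives, but under library totals it fell by only 0.10 on the log2 scale (edgeR adjusted p = 0.0149). Mxi1 was also the fourth nearest of 9763 candidate genes to Mxd1 by profile, at a distance of 0.0475, after Cul4a (0.0303), Mocs1 (0.0371) and Aplf (0.0467) and before Elf2 (0.05), with 460 genes within 0.2. The erythroblast markers moved in the same direction, their median being -0.73 on the log2 scale, and their part in the lower Mxd1 and Mxi1 levels was not tested. Removal of the hemoglobin genes, a check of the scaling only, left Mxd1 at a log2 fold change of -0.36 and Mxi1 at -0.37. That check does not bear on the number or maturity of the erythroblasts.

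Mxd3 encodes an MXD protein found in proliferating cells. Its level was 21.65, 17.65 and 19.22 CPM in DMSO and 17.54, 17.79 and 16.13 CPM with NUP-17d. The groups overlapped, and DMSO 1 was the highest library. The means were 19.5 ± 2.02 and 17.2 ± 0.897 CPM (SD, n = 3), and the log2 fold change was -0.18 with SE 0.07 (edgeR adjusted p = 0.0508), just outside the threshold, with 0.08 under library totals. Without DMSO 2 the value was -0.25 (edgeR adjusted p = 0.0145) and without NUP-17d 2 it was -0.21 (edgeR adjusted p = 0.0454), within a range of adjusted p from 0.0145 to 0.333 over the 13 alternatives. The 3′ end of Mxd3 (chr13:55325170-55329900, minus strand) shares 103 bases with Prelid1, whose mean expected count was 2679 per library against 335.5 to 397.4 for Mxd3. The Mxd3 counts were not whole numbers, and because the labels describe a library protocol that does not mark strand, reads from the shared bases are uncertain between these genes. Gene spans also overlapped for Mxd1 with the noncoding RNA gene Gm38850 (9111 bases) and for Mxi1 with Gm30541 (16740 bases), also noncoding. The span of Mga held the pseudogene Gm13998 (638 bases). Gm38850, Gm30541 and Gm13998 were not listed in the libraries, so their share of reads is unknown.

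Mxd4 and Mnt moved opposite to Mxd1 and Mxi1. Mxd4, on the minus strand of chromosome 5 from base 34176580 to base 34187710, encodes another MXD repressor and was at 9.943, 9.327 and 7.947 CPM in DMSO and 10.89, 10.31 and 11.96 CPM with NUP-17d. The groups did not overlap, but only 148 to 261 counts per library stood behind these values. The log2 fold change was 0.28 with SE 0.09 and a 95% interval of 0.09 to 0.48 (edgeR adjusted p = 0.0190). The call for Mxd4 was lost without DMSO 3 (0.20, edgeR adjusted p = 0.142), without NUP-17d 3 (0.22, edgeR adjusted p = 0.103) and in DESeq2 (0.28, adjusted p = 0.122), within an adjusted p range of 1.31e-05 to 0.142 over 13 alternatives. Under library totals its log2 fold change was 0.55.

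Mnt encodes a MAX-binding repressor that is produced in most cell types and acts as a broad counterweight to MYC. It lies at chr11:74830806-74845725 on the plus strand. Its level was 41.37, 38.41 and 37.59 CPM in DMSO and 47.55, 47.10 and 46.04 CPM with NUP-17d. The treated libraries were all above the controls. The mean rose from 39.1 ± 1.99 to 46.9 ± 0.772 CPM (SD, n = 3), which is 1.20 times the DMSO level (log2 fold change 0.26, SE 0.05, edgeR adjusted p = 7.83e-05), and Mnt passed the test as higher in 13 of 13 alternatives, with a log2 fold change of 0.53 under library totals (edgeR adjusted p = 2.37e-09).

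Mga encodes a very large protein that pairs with MAX and forms part of a Polycomb-type repressor complex. Its gene spans chr2:119872503-119970129 on the plus strand. The level was 64.68, 65.71 and 60.68 CPM in DMSO and 67.52, 60.95 and 59.38 CPM with NUP-17d, and both the highest and the lowest library were treated ones. The log2 fold change was -0.02 with SE 0.05 and a 95% interval of -0.12 to 0.07 (edgeR adjusted p = 0.730), while without NUP-17d 3 it was 0.01 (edgeR adjusted p = 0.904) and under library totals 0.24. A difference in Mga was not detectable with TMM scaling.

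In the parallel branch, MLX is the obligate partner and MLXIP (also called MondoA) the glucose-sensing activator. Mlx, on chromosome 11 from base 101086707 to base 101092207 of the plus strand, was at 32.81, 32.99 and 31.04 CPM in DMSO and at 31.59, 31.55 and 31.66 CPM with NUP-17d. The treated values lay inside the range of the controls, with a log2 fold change of -0.03 (SE 0.05, 95% interval -0.13 to 0.07, edgeR adjusted p = 0.673) and 0.24 under library totals. Its 3′ end shares 67 bases with Psmc3ip, which had a mean expected count of 136.4 per library, so that part of its reads is likewise uncertain.

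Mlxip (chr5:123394521-123457932, plus strand) was at 53.19, 53.27 and 51.98 CPM in DMSO and at 62.78, 59.47 and 59.47 CPM with NUP-17d. The groups did not overlap. The mean rose from 52.8 ± 0.726 to 60.6 ± 1.91 CPM (SD, n = 3), or 1.15 times the DMSO level (log2 fold change 0.20, SE 0.04, edgeR adjusted p = 5.57e-04), and the call held in 13 of 13 alternatives, with a log2 fold change of 0.46 under library totals (edgeR adjusted p = 7.72e-09). The mean transcript length listed for Mlxip varied between libraries, from 6971 to 7217 bases in DMSO and from 7024 to 7183 with NUP-17d. The mixture of its transcripts was therefore not estimated equally in each library.

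**Figure D2:**
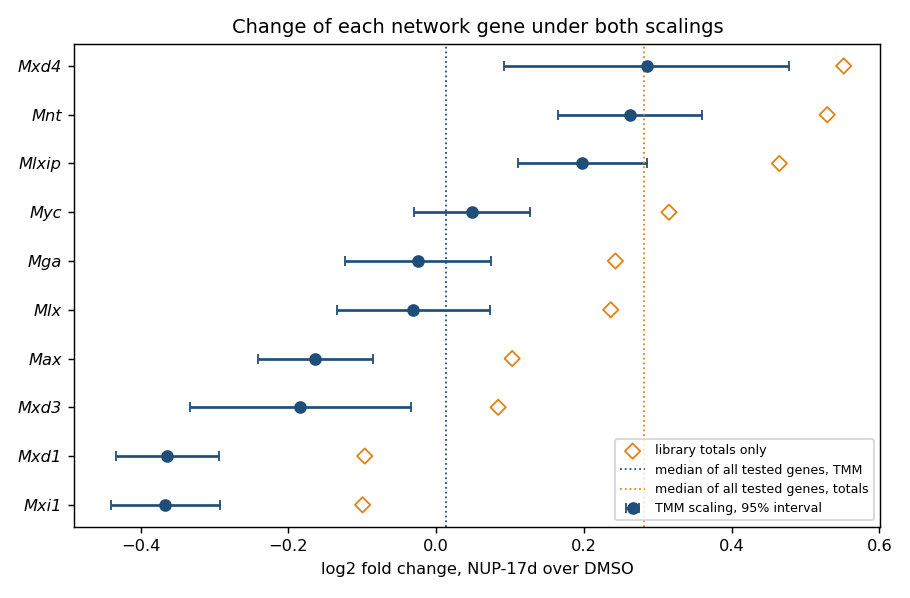
Log2 fold change of NUP-17d over DMSO (horizontal axis) for each network gene, where filled circles with bars give the TMM-scaled value with its 95% interval, open diamonds the value under library totals, and dotted lines the median of all tested genes under each scaling (0.01 and 0.28). The order of the genes is the same under both scalings, with Mxi1 and Mxd1 lowest and Mxd4 and Mnt highest, while Max, Mxd3, Mga and Mlx cross 0.

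Levels of different genes were compared per transcript length as FPKM, in which counts are divided by transcript length and library size. This scale has no correction for library composition, so it is used for the order of genes within a group and for ratios within a library. In DMSO, Mxd1 was by far the most abundant member at 181.8 ± 3.41 FPKM (SD, n = 3), ranking 305 to 308 among the genes of its library. Mxi1 (48.4 ± 0.981), Max (47.1 ± 2.23) and Myc (42.4 ± 2.64) followed, and the FPKM ranges of neighbours in this trio overlapped. Mlx (15.8 ± 0.632), Mxd3 (13.7 ± 1.06), Mnt (7.61 ± 0.231), Mxd4 (6.96 ± 0.704), Mlxip (6.67 ± 0.287) and Mga (4.11 ± 0.199) were lower, and Mnt overlapped Mxd4 and Mxd4 overlapped Mlxip. With NUP-17d the order below the top changed to Myc (52.9 ± 0.511), Max (50.7 ± 0.992) and Mxi1 (45.3 ± 1.40), with no overlap between these 3, beneath Mxd1 at 170.5 ± 3.77 FPKM. The remaining order was the same, from Mlx (18.7 ± 0.110) and Mxd3 (14.6 ± 0.940) through Mnt (11.0 ± 0.308), Mxd4 (10.2 ± 0.650) and Mlxip (9.19 ± 0.426) to Mga (4.85 ± 0.361), and again Mnt overlapped Mxd4 and Mxd4 overlapped Mlxip.

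Ratios of FPKM within a library do not depend on its scaling, and they describe how the supply of partner transcripts stood. The ratio of Myc to Max was 0.900, 0.931 and 0.869 in DMSO and 1.03, 1.05 and 1.05 with NUP-17d. Myc was thus below Max in every control library and above it in every treated library, although Myc itself did not pass the test. Over all other tested genes, the FPKM ratio to Max was higher without overlap in 50.4% and lower without overlap in 8.44%, so the direction of the Myc to Max ratio was a common one.

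The ratio of Mxd1 to Max was 4.0, 3.79 and 3.81 in DMSO and 3.38, 3.37 and 3.34 with NUP-17d, and that of Mxi1 to Max was 1.06, 1.0 and 1.02 in DMSO and 0.893, 0.878 and 0.909 with NUP-17d. Both ratios were lower in every treated library, the less common direction. Against Myc, Mxd1 stood at 4.44, 4.07 and 4.39 in DMSO and at 3.29, 3.21 and 3.18 with NUP-17d, and Mxi1 at 1.18, 1.08 and 1.17 in DMSO and 0.869, 0.836 and 0.867 with NUP-17d. Both repressor transcripts were thus at 0.75 of their DMSO ratio to Myc, and over all other tested genes the FPKM ratio to Myc was lower without overlap in 26.2% and higher without overlap in 13.5%. The ratio of Mnt to Max was 0.176, 0.157 and 0.153 in DMSO and 0.217, 0.224 and 0.211 with NUP-17d, and that of Mxd4 to Max was 0.167, 0.150 and 0.128 in DMSO and 0.196, 0.194 and 0.216 with NUP-17d. Both were higher without overlap, as were the ratios to Max of 50.4% of the other tested genes. Mnt relative to Mxd1 was 1.54 times the DMSO ratio, but Mxd1 itself fell (log2 fold change -0.36 with TMM, beside a median of 0.01). The share of other tested genes with a higher ratio to Mxd1 was not computed.

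Summed over the 6 repressor genes, FPKM relative to Myc was 6.47, 5.85 and 6.31 in DMSO and 4.94, 4.82 and 4.79 with NUP-17d, and the groups did not overlap. A ratio to Myc that was lower without overlap was found for 26.2% of the other tested genes, the more common direction. Mxd1 dominated this sum, with 69.2% ± 0.539 in DMSO and 66.5% ± 0.0978 with NUP-17d (SD, n = 3), and Mxi1 came next with 18.4% ± 0.193 and 17.7% ± 0.373. The sum therefore follows Mxd1 and shows little of the rise in Mnt and Mxd4. In the parallel branch, the ratio of Mlxip to Mlx was 0.407, 0.423 and 0.436 in DMSO and 0.519, 0.480 and 0.480 with NUP-17d, again without overlap, while the ratio to Mlx was higher without overlap for 24.4% of the other tested genes and lower for 17.6%. These ratios are of transcripts, and the proteins were not measured.

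**Figure D3:**
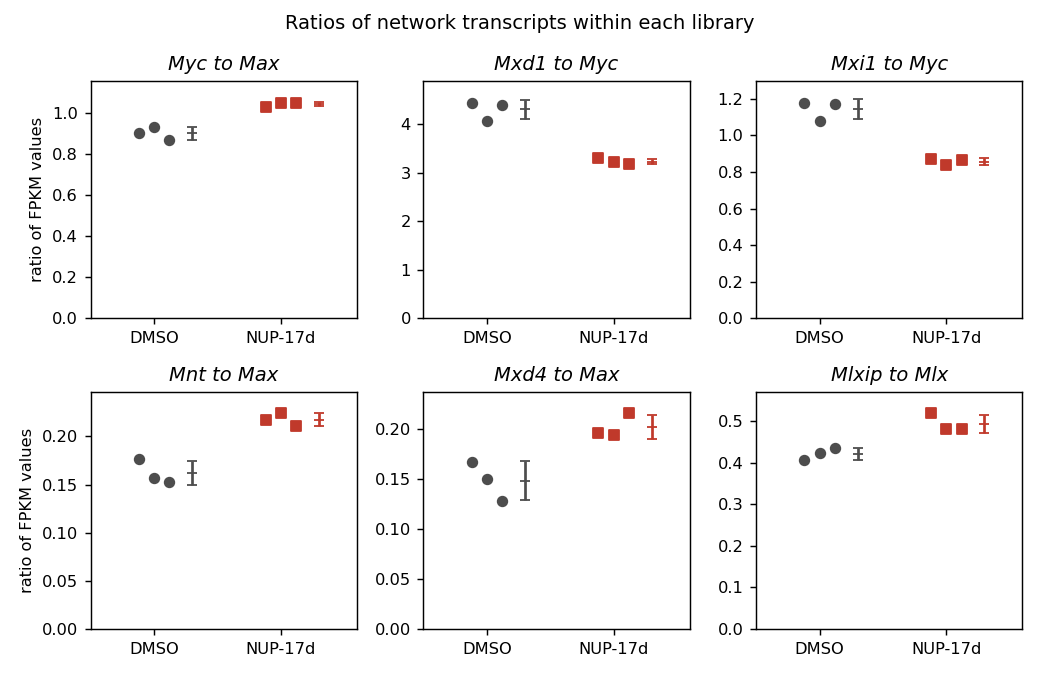
Ratio of FPKM values (vertical axes, each from 0) within each of the 3 DMSO (grey circles) and 3 NUP-17d libraries (red squares), with the mean ± SD as bars. Myc to Max passes from below 1 to above 1, Mxd1 to Myc and Mxi1 to Myc are lower in every treated library, and Mnt to Max, Mxd4 to Max and Mlxip to Mlx are higher.

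The partners through which the network acts showed small changes in both directions. Of the MYC coactivator genes, 2 of 11 were higher and 3 lower with TMM (median 0.0094 on the log2 scale), against 8 higher and 0 lower under library totals. For comparison, 16.4% of all tested genes were higher and 18.9% lower with TMM, and 68.7% higher and 5.36% lower under library totals. The values that follow are those with TMM unless library totals are named. Ccnt1, the cyclin of the elongation kinase P-TEFb, fell by 0.28 on the log2 scale (edgeR adjusted p = 3.26e-04), and Ruvbl2, an ATPase of the TIP60 complex, fell by 0.19 (edgeR adjusted p = 9.30e-04). Zbtb17, the zinc finger partner MIZ1 of MYC, rose by 0.26 (edgeR adjusted p = 0.00205). Of the corepressor genes used by the MXD proteins and MNT, 1 of 10 was higher and 3 lower (median -0.07), against 10 higher and 0 lower under library totals. Sin3b, a scaffold to which MXD proteins and MNT bind, rose by 0.19 on the log2 scale (edgeR adjusted p = 8.91e-04), while the histone-binding subunits Rbbp7 and Rbbp4 fell by 0.15 (edgeR adjusted p = 0.00189) and 0.11 (edgeR adjusted p = 0.0157). Of the genes for MGA's complex, 3 of 11 were higher and 1 lower (median -0.03), with 10 higher and 0 lower under library totals. Tfdp1, the dimer partner of the E2F factors, fell by 0.15 (edgeR adjusted p = 9.91e-04), whereas the ubiquitin ligase gene Rnf2 and Yaf2 rose by 0.23 (edgeR adjusted p = 0.00114) and 0.21 (edgeR adjusted p = 0.0175).

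Genes that govern the stability of the MYC protein were listed because mRNA alone does not set the level of the protein. Of 11 such genes, 1 was higher and 2 lower, with a median of -0.05, and 8 higher and 0 lower under library totals. The shares over all tested genes were 16.4% higher and 18.9% lower with TMM, and 68.7% and 5.36% under library totals. Ppp2r5a, a subunit that directs the phosphatase PP2A, was at 199.4, 201.4 and 196.7 CPM in DMSO and 291.5, 286.6 and 296.1 CPM with NUP-17d. It was the gene of the list that moved most, with a log2 fold change of 0.55 and SE 0.03 (edgeR adjusted p = 5.94e-13). Aurka, a mitotic kinase that can protect MYC-family proteins, fell by 0.22 (edgeR adjusted p = 3.68e-05), and the ubiquitin ligase gene Skp2 fell by 0.19 (edgeR adjusted p = 0.0203).

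Of the genes listed as activated by MYC, 21 of 34 tested were lower with TMM scaling, 0 were higher and 13 did not pass. Under library totals 16 were higher and 2 lower. Over all tested genes, 18.9% were lower and 16.4% higher with TMM, and 5.36% lower and 68.7% higher under library totals. Their median log2 fold change was -0.15, beside 0.05 for Myc itself and 0.01 for all tested genes. Odc1, the first enzyme of polyamine synthesis, was at 722.1, 703.5 and 684.9 CPM in DMSO and 498.3, 492.9 and 504.4 CPM with NUP-17d (log2 fold change -0.50, SE 0.03, edgeR adjusted p = 5.18e-12). The groups were far apart. The lactate transporter gene Slc16a1 fell by 0.40 (edgeR adjusted p = 1.18e-09) and Shmt2, a mitochondrial enzyme of one-carbon metabolism, fell by 0.32 (edgeR adjusted p = 1.44e-07). DESeq2 called 0 higher and 18 lower, and under library totals the median was 0.12, which is below the 0.28 of all genes on that scale. Many of these genes are general growth and ribosome genes, and their other regulators were not examined. The 12 erythroblast markers were lower in the same libraries, and their part in these values was not tested.

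Of the genes listed as repressed by MYC, 1 of 6 tested was higher and 2 were lower, with a median of -0.04, and 3 higher and 2 lower under library totals. Over all tested genes, 16.4% were higher and 18.9% lower with TMM, and 68.7% higher and 5.36% lower under library totals. Gadd45a, a stress-induced gene of the growth arrest family, was at 1471, 1410 and 1463 CPM in DMSO and 675.1, 676.9 and 717.9 CPM with NUP-17d. Every treated library had less than every control, and the log2 fold change of -1.07 with SE 0.04 (edgeR adjusted p = 9.19e-18) was the largest fall of the list. Cdkn1b, which encodes the cell cycle inhibitor p27, fell by 0.45 (edgeR adjusted p = 1.26e-10), and Ndrg1, a gene of stress and hypoxia responses, rose by 0.30 (edgeR adjusted p = 2.47e-06). The 12 erythroblast markers were lower in the same libraries, and their part in the Gadd45a and Cdkn1b values was not tested.

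Both listed targets of MLX with MLXIP fell, while Mlxip rose. Txnip, which restrains glucose uptake and is a direct target of this pair, was at 271.8, 267.4 and 264.2 CPM in DMSO and at 150.4, 147.9 and 154.5 CPM with NUP-17d. The mean was 0.564 of the DMSO level (log2 fold change -0.83, SE 0.03, edgeR adjusted p = 3.82e-16). Arrdc4, a related arrestin gene, was at 5.413, 5.744 and 6.766 CPM in DMSO and 2.395, 3.003 and 2.886 CPM with NUP-17d (log2 fold change -1.11, SE 0.14, edgeR adjusted p = 7.19e-07). Both were also called lower under library totals, as were 5.36% of all tested genes, and their median there was -0.70. The erythroblast markers, with a median of -0.73 with TMM, were lower in the same libraries, and their part in the Txnip and Arrdc4 values was not tested. Mlxip mRNA and these 2 target mRNAs thus moved in opposite directions in the same libraries.

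**Figure D4:**
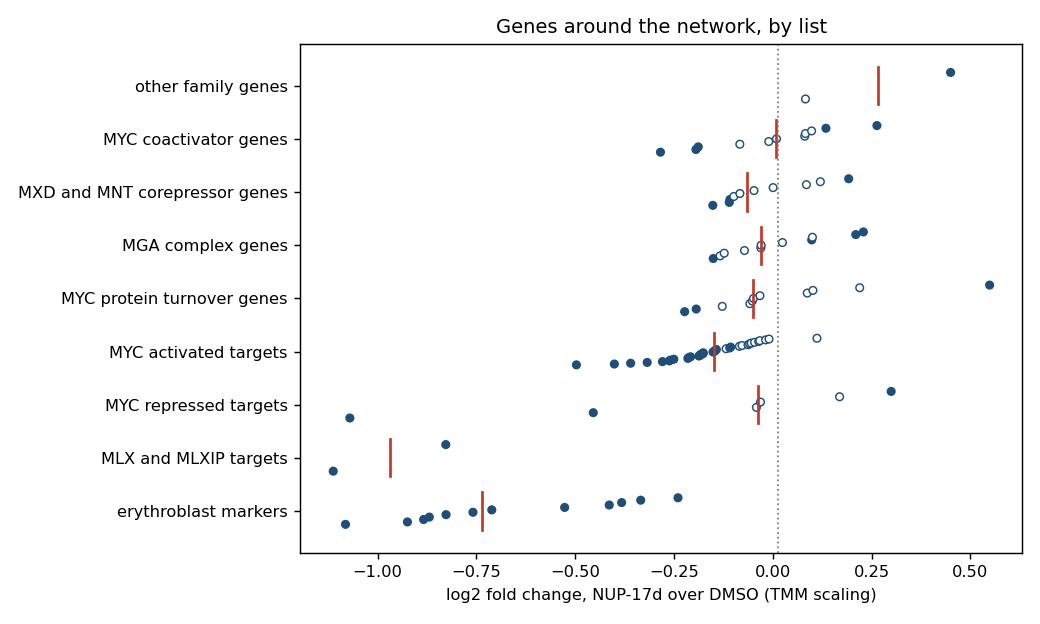
Log2 fold change of NUP-17d over DMSO with TMM scaling (horizontal axis) for the tested genes of each list around the network and for the erythroblast markers, where each circle is 1 gene, filled where the edgeR adjusted p was under 0.05, red bars mark the median of a list and the dotted line the median of all tested genes (0.01). The MYC activated targets have 21 filled circles of 34, all to the left of the dotted line (under library totals 16 of these genes are higher and 2 lower), both targets of MLX and MLXIP lie left of -0.80, and the 12 erythroblast markers are all lower. Of all tested genes, 18.9% were called lower with TMM, and 68.7% higher and 5.36% lower under library totals.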

How the data were processed

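RNA from 6 cultures (3 DMSO and 3 NUP-17d, 48 hours) was sequenced as single reads. The authors deposited, for each library, expected counts per gene (estimated, 27.8% to 28.5% of values not whole), FPKM values and a mean transcript length. The aligner and the counter are not given in the sources used here, and mm10 is the build in the submitters' processing notes. Gene positions and promoters are from RefSeq on GRCm38.p6, the assembly that mm10 names. The labels describe a protocol that does not mark strand, while the study's methods name a stranded kit. A gene with no entry in a library was set to 0. Expected counts were rounded, filtered with filterByExpr and scaled by TMM (factors 0.887 to 1.11), and tested with the quasi-likelihood test of edgeR 4.0.16 in R 4.3.3, with adjustment over 12306 genes, of which 4346 passed an adjusted p of 0.05 (2019 higher, 2327 lower), 46.5% of them higher against 92.8% under library totals. SE was the log2 fold change over the root of F. The biological coefficient of variation was 2.95%. The script was checked on simulated counts.

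All members were named, with up to 3 genes of the lowest p from each list, and, for Myc and for the member with the lowest p, the 5 genes of mean count 100 or more with the nearest profile. The members and lists were chosen with earlier results of these data known, and 1 gene of the coactivator list is not reported here. Alternatives were DESeq2 1.42.0, library totals, removal of hemoglobin genes, no filter on low counts, limma 3.58.1 on logged FPKM values (base 2, pseudocounts of 1 and 0.1), a replicate block, and leaving out each library. Libraries of a group differed by more than sampling noise. Depth was about the same in all libraries, so the precision for a gene depended on its own counts and on its spread between libraries.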

Additional observations from a re-analysis of the deposited data

How the results depend on the processing

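Mxd1 and Mxi1 stayed lower and Mnt and Mlxip higher, past the threshold, in all 13 alternatives, and the sign of Myc and Mxd4 was kept. Scalings without composition correction shifted every member upward: under library totals Mxd1 and Mxi1 were at -0.10, Mnt at 0.53, Mlxip at 0.46, Mxd4 at 0.55 and Myc at 0.32, and Myc was called higher in all 3 such settings. Library totals called 9113 genes, and limma called 8494 with log2(FPKM + 1) and 8480 with log2(FPKM + 0.1), against 4346, and each of these 3 called 7 members higher, against 3. In the same order, log2 fold changes with reversed sign were 0.10, 0.11 and 0.11 for Max, 0.084, 0.082 and 0.088 for Mxd3, 0.24, 0.20 and 0.23 for Mga, and 0.24, 0.23 and 0.24 for Mlx. Mga ranged from -0.082 to 0.011 when 1 library was left out and was reversed without NUP-17d 3. The shifts without composition correction follow from the centring, since the median of all genes moved from 0.01 to 0.28, 0.24 and 0.27.

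Replicates with the same number in both groups had correlations of 0.0566, -0.0046 and -0.00316 between their deviations. Among these, only the libraries numbered 1 correlated best with each other. The highest correlation, 0.0706, was between DMSO 3 and NUP-17d 2. These values gave no clear sign of pairing by number, but with 3 libraries a group they cannot exclude it. With a replicate block 4543 genes were called, Mxd3 passed (-0.18, edgeR adjusted p = 0.0349), and the calls of the other members did not change. Low counts limit Mxd4, and 3 libraries a group limit every interval.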
